A study of Acropora aff. hyacinthus sp. E JTL-2012 with 12 samples.

Results

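Sterol transfer proteins are the proteins that carry cholesterol and related lipids from membrane to membrane. They were taken from the contigs of an assembled coral transcriptome by the wording of their description: Epididymal secretory protein E1 (the older name of NPC2), Niemann-Pick C1, StAR-related lipid transfer protein, non-specific lipid-transfer protein or oxysterol-binding protein. The wording matched 23 of 16980 contigs. Of these, 19 reached the mean value of 10 over all libraries that was required for a test, among 11903 contigs tested. There were 8 contigs of NPC2, 1 of NPC1, 3 of StAR-related proteins, 2 of non-specific lipid-transfer protein and 9 of oxysterol-binding proteins. All 8 NPC2 contigs were tested, as were 2 StAR-related, 2 non-specific and 7 oxysterol-binding contigs, and the NPC1 contig was not.

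The libraries were made from polyps of the tabletop coral Acropora aff. hyacinthus sp. E JTL-2012, a reef builder with photosynthetic algae inside its cells. Each of 6 colonies had a fragment in pool 300 and a fragment in pool 400, the names of the habitats, so there were 12 libraries. The groups were corals from pool 300 living in pool 300 (corals 2, 7 and 75), the same corals living in pool 400, corals from pool 400 living in pool 300 (corals 40, 68 and 70), and those living in pool 400, with 3 corals in each. All fragments were transplanted on August 3, 2010 and sampled on August 30, 2011, within 10 minutes of noon, and no unmoved control is among them.

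In vertebrates NPC2 is a small soluble protein of the late endosome and lysosome that binds a sterol molecule and hands it to NPC1, a membrane protein that passes it on into the limiting membrane. StAR-related proteins and oxysterol-binding proteins move sterols and phospholipids through the cytosol at places where organelles touch, and non-specific lipid-transfer protein (also called sterol carrier protein) does so in peroxisomes and cytosol. In reef corals and sea anemones the symbiotic algae live in the symbiosome, a compartment of late endosomal character, and supply sterols to a host that makes few of its own. In the sea anemone Exaiptasia, NPC2 proteins form an enlarged family and have been found at the symbiosome. Polyp RNA does not show where a protein lies, so no contig can be placed at that boundary here, and no sequence or position of a contig was used.

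Values are the deposited ones, which are reads divided by a size factor of the library. In these values 1 read was worth from 0.586 in the pool 300 library of coral 40 to 1.66 in the pool 400 library of coral 2. Contig lengths are not known, so a higher value in one contig than in another does not show more RNA of it. Several contigs of one description may be separate genes, alleles or pieces of one gene, and reads of near-identical copies may have been split between them. In whole polyps, fewer cells of a type and less RNA per cell cannot be told apart.

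Recovered depth ran from 557339 to 1643526 reads per library, with a median of 885480, so contigs of low value rest on few reads. In pool 300 the deposited size factors were 0.993 to 1.0 times the median-ratio factors of those reads, and in pool 400 they were 0.638 (coral 70) to 1.28 (coral 2) times those factors. Libraries of corals 40 and 68 went against their numbers: between the labelled fragments, 80 contigs had a value of 20 or above on one side and no read on the other, and 26 did when the pool 400 fragments of these corals were exchanged. The correlation across contigs of log2 values was 0.842 between the fragments of coral 40 and 0.856 between those of coral 68, against 0.909 and 0.880 for the exchanged pairs. Since pool 400 is the origin of both, exchanging them alters the pairs and not the groups. For some of the results that rest on these corals, values without both are given as well. Of the markers of algae, the Photosystem Q(B) protein was measured in every library, at 42.8 to 86.7 in pool 300 and 28.2 to 69.7 in pool 400. The other algal contig, Photosystem II CP47 chlorophyll apoprotein, was at 1.37 or below in all 4 libraries of corals 40 and 68 and at 13.3 to 51.8 in the other libraries.

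Of the 19 tested contigs 0 were called for the pool, for the pool of origin or for their combination, a call being a limma p under 0.05 after Benjamini-Hochberg adjustment over all contigs. The largest share of the spread lay between single corals. A pair of NPC2 contigs, contig195376 and contig157493, had higher values in pool 300 than in pool 400 in every coral from pool 300, by log2 differences of 1.63 and 2.0, and the limma adjusted p did not pass (0.192 and 0.241). These 3 corals differed the same way, up or down, in 25.1% of all contigs. Over all 6 corals the pools overlapped in every NPC2 contig. The pool 400 fragment of coral 70 had the highest value in 8 of 9 oxysterol-binding contigs, where 47.6% of all contigs had theirs, and in 2 of 9 after rescaling, where 10.9% did.

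NPC2 was read mostly from contig97524, contig600122 and contig151352, which took 77.6% to 91.1% of all NPC2 reads in a library. Contig97524, with the highest mean of deposited values, was at 817, 483, 652, 419, 671 and 594 in the pool 300 fragments of corals 2, 7, 75, 40, 68 and 70, against 593, 529, 558, 422, 613 and 509 in the pool 400 fragments of the same corals. The groups overlapped throughout. Coral 40 had the lowest value in both pools, and coral 2 had the highest in pool 300 and coral 68 in pool 400. Over 6 corals its mean was 606 ± 142 in the pool 300 fragments, against 537 ± 68.3 in the pool 400 fragments (SD, n = 6), a log2 difference of 0.15 (95% interval -0.05 to 0.35).

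Contig600122 stood at 513, 265, 403, 228, 395 and 358 in the pool 300 fragments of corals 2, 7, 75, 40, 68 and 70, against 543, 276, 311, 248, 344 and 278 in the pool 400 fragments. Coral 2 was highest and coral 40 lowest in both pools, while neither pool was the higher one throughout. Coral within origin took 76.2% of the sum of squares of this contig and 69.3% of that of contig97524. Pool took 2.20% and 7.76%. The third, contig151352, had a mean of 299 ± 50.6 in the pool 300 fragments, against 298 ± 70.9 in the pool 400 fragments (SD, n = 6), with a log2 difference of 0.02 (95% interval -0.30 to 0.34). Its lowest value was 237 and its highest 429, both in pool 400 fragments, those of corals 40 and 68.

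**Figure D1:**
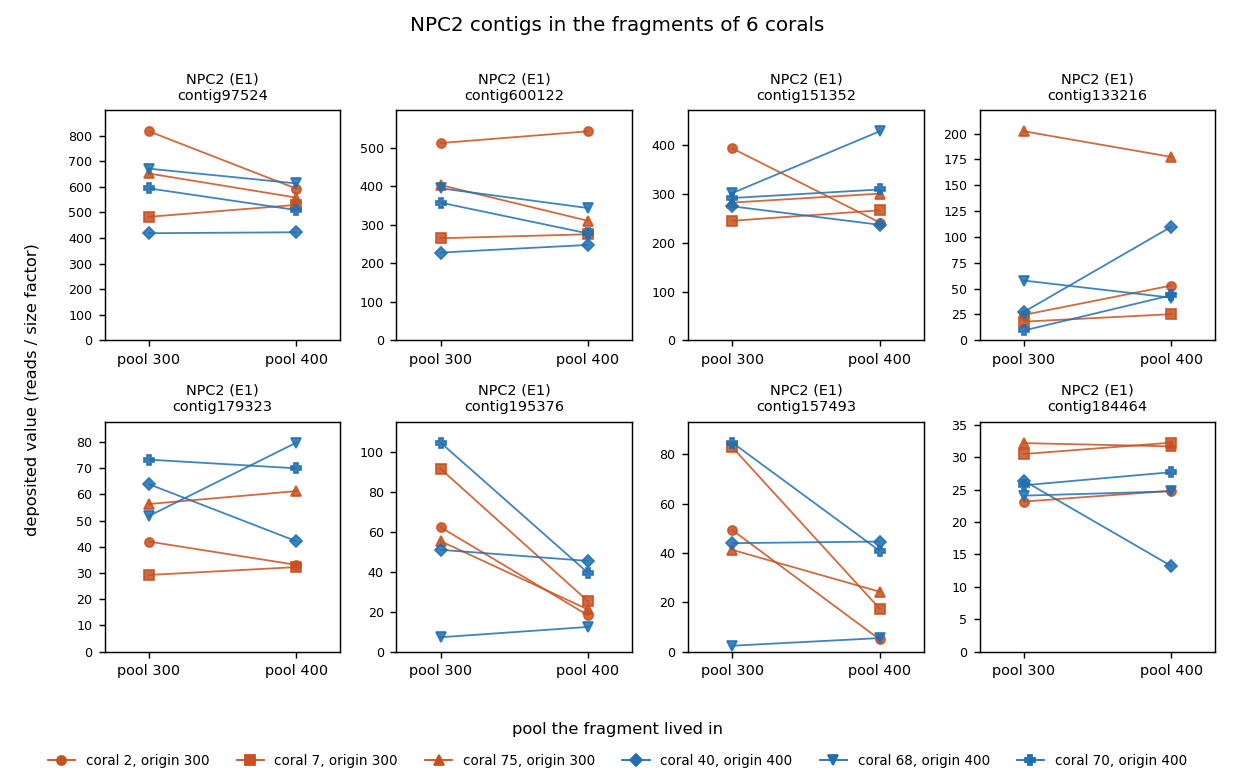
Deposited value (reads divided by size factor, vertical axis from 0) of each NPC2 contig in the pool 300 fragment (left) and the pool 400 fragment (right) of 6 corals. Each line joins the fragments of one coral, red for origin 300 and blue for origin 400. Lines of contig195376 and contig157493 run down to the right in corals 2, 7, 75 and 70 and are near level or run up in corals 40 and 68, while the other panels show lines in both directions.

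Summed over its 8 contigs, NPC2 had a value of 1134.2 to 1924.5 in pool 300 (median 1526.4) and of 1162.5 to 1549.4 in pool 400 (median 1401.4). By origin the sums ran from 1204.1 to 1924.5 in corals from pool 300 (median 1498.4) and from 1134.2 to 1549.4 in corals from pool 400 (median 1414.6). These sums of values, which longer contigs weigh more in, overlapped between the pools and between the origins.

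Among the other NPC2 contigs, contig195376 had the smallest p of any sterol transfer contig for the pool. Its values in corals from pool 300 were 62.3, 91.5 and 55.3 in the pool 300 fragments of corals 2, 7 and 75, against 18.2, 25.3 and 21.1 in their pool 400 fragments. Corals from pool 400 had 51.0, 7.23 and 105 in the pool 300 fragments of corals 40, 68 and 70, against 45.4, 12.4 and 39.5 in their pool 400 fragments. All 3 corals from pool 300 were higher in pool 300, and these 3 differed the same way, up or down, in 25.1% of all contigs. Within corals from pool 400 the pools overlapped, since coral 68 was the lowest of all in both pools and coral 40 hardly differed.

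As ratios of the fragments (pool 300 over pool 400), contig195376 stood at 3.42, 3.62 and 2.62 in corals 2, 7 and 75, at 1.12 in coral 40, 0.584 in coral 68 and 2.65 in coral 70. The log2(value + 1) difference was 1.63 (SE 0.39, 95% interval 0.76 to 2.50) in corals from pool 300 and 0.28 (SE 0.39, 95% interval -0.59 to 1.15) in corals from pool 400. By limma the p in corals from pool 300 was 0.00192 before adjustment, rank 119 of 11903 contigs, and 0.192 after Benjamini-Hochberg adjustment over all of them. Without corals 40 and 68 the same difference of 1.63 passed, in a fit where more of all contigs passed than with every coral. Both are of the other origin, so they enter only the estimate of the spread, and coral 70 is then alone from pool 400. Over the other 13 settings tried the difference ranged from 1.47 to 1.77, with a limma adjusted p of 0.0811 to 1.

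Contig157493 followed contig195376 closely. Corals from pool 300 had 49.2, 82.8 and 41.2 in the pool 300 fragments of corals 2, 7 and 75, against 4.97, 17.4 and 24.3 in their pool 400 fragments. Corals from pool 400 had 44.0, 2.41 and 84.7 in the pool 300 fragments of corals 40, 68 and 70, against 44.6, 5.5 and 40.9 in their pool 400 fragments. As in contig195376, all 3 corals from pool 300 were higher in pool 300, and the pools overlapped within corals from pool 400. Coral 68 was lowest in pool 300. The low values rest on few reads, 3 in the pool 400 library of coral 2 and 2 and 4 in the libraries of coral 68 in pool 300 and pool 400.

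The log2 difference of contig157493 was 2.0 (SE 0.51, 95% interval 0.87 to 3.13) in corals from pool 300, with a limma p of 0.00271 before and 0.241 after adjustment. In corals from pool 400 it was 0.03 (SE 0.51, 95% interval -1.10 to 1.16). Without coral 2, whose fragments differed by 3.07, the first of these was 1.46, and without coral 75 it was 2.63. The value of contig157493 was 0.273 to 1.15 times that of contig195376 in the 12 libraries, with a median of 0.80, a ratio that their unknown lengths also set. Their log2 values had a Pearson r of 0.958 across these libraries, which share corals and pools. Whether the contigs are copies, alleles or parts of one gene was not tested.

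Difference between origins in the pool effect was fitted for each contig as well. It was 1.35 (SE 0.55) for contig195376 and 1.97 (SE 0.72) for contig157493, with limma p of 0.0354 and 0.0203 before adjustment and of 1 for each after it. An effect in corals of one origin and a smaller one in corals of the other is therefore not shown to differ between origins. Without corals 40 and 68, which leaves coral 70 alone from pool 400, the difference was 0.24 for contig195376 and 0.97 for contig157493. Without coral 68 alone it was 0.85 for contig195376, and by edgeR with all corals it was 1.31 for contig157493. When the pool 400 fragments of corals 40 and 68 were exchanged, the unadjusted limma p was 0.149 for contig195376 and 0.13 for contig157493. These contigs lay closer in the labelled pairs of corals 40 and 68 than in exchanged ones, with summed absolute log2 differences of 0.864 against 4.456 and of 0.952 against 6.533. Over all 19 contigs, 9 lay closer as labelled (47.4%), where 42.6% of all contigs did.

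Values of the muscle list are given beside these NPC2 contigs. Of its 32 contigs, 2 match only by a calponin homology domain. For origin 300 the list summed to 2596.4 to 3056.8 in pool 300 fragments and to 2014.1 to 2655.2 in pool 400 fragments. Positive differences stood in 16 of the 21 tested and in 66.4% of all contigs, the medians being 0.42 and 0.13. By limma 0 of the 21 were called and 5 had an unadjusted p under 0.05, as had 4.71% of all contigs. After rescaling 14 of 21 and 47.8% of all contigs were positive, with medians of 0.30 and -0.02. The 5 described contigs nearest to contig195376 in pattern, looked up after the values were seen, were contig157493 itself, RING finger and transmembrane domain-containing protein 2 (contig57968, r = 0.897), APOBEC1 complementation factor (contig115215, 0.881), Myosin-2 essential light chain (contig202421, 0.825) and Heparin-binding growth factor 1 (contig205886, 0.819). The digestive list, of enzymes of the gastrodermis, the tissue layer that holds the algae, and 3 contigs of inter-alpha-trypsin inhibitor, which is no such enzyme, summed to 1332.9 to 1724.2 in pool 300 fragments and to 1367.7 to 1621.2 in pool 400 fragments of the same corals. The algal contigs summed to 72.2 to 85.4 in pool 300 fragments and to 53.0 to 121.5 in pool 400 fragments. Within corals from pool 400, the algal CP47 contig was near 0 in corals 40 and 68. The Photosystem Q(B) protein was at 42.8 and 86.7 in their pool 300 fragments, against 62.0 and 63.2 in their pool 400 fragments. None of these marker contigs was at 0 in every library, and their part in the NPC2 values was not tested.

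Opposite in sign was contig133216, a further NPC2 contig. It was at 24.6, 18.1, 202, 27.5, 57.8 and 9.51 in the pool 300 fragments of corals 2, 7, 75, 40, 68 and 70, against 53.0, 25.3, 177, 109.9, 41.2 and 43.6 in the pool 400 fragments. Coral 75 was far above the other corals in both pools. Pool 300 was lower in corals 2, 7, 40 and 70 and higher in corals 75 and 68. The log2 difference over 6 corals was -0.82 (SE 0.34, 95% interval -1.59 to -0.05), with a limma p of 0.0384 before and 0.963 after adjustment. For corals from pool 400 it was -1.19 (SE 0.48), with a limma p of 0.0313 before and 1 after adjustment. That value was -2.02 without coral 68, -0.74 without coral 70 and -2.09 without corals 40 and 68, where coral 70 is left alone. Contig133216 lay closer in exchanged pairs of corals 40 and 68 (1.481) than in labelled ones (2.435). Without both corals the difference over the other 4 was -0.86 (limma adjusted p = 1).

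The remaining NPC2 contigs were steadier. Contig179323 was at 42.0, 29.3, 56.3, 63.9, 51.8 and 73.3 in the pool 300 fragments of corals 2, 7, 75, 40, 68 and 70, against 33.1, 32.3, 61.3, 42.1, 79.7 and 69.9 in the pool 400 fragments. Its pool difference was 0.02 (95% interval -0.40 to 0.44). Contig184464 ran from 23.2 to 32.2 in pool 300 and from 13.2 to 32.3 in pool 400, the low value being the pool 400 fragment of coral 40. Of the 8 NPC2 contigs, the standard deviation of log2 values over the 12 libraries was between 0.262 in contig151352 and 1.55 in contig157493, at percentiles 7.49 and 97.0 of all contigs tested. One description thus covers both some of the steadiest and some of the most variable contigs of the table.

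NPC1, the membrane partner of NPC2, was barely read. Contig205354 was at 2.90, 5.60, 1.01, 1.76, 2.41 and 1.90 in the pool 300 fragments of corals 2, 7, 75, 40, 68 and 70, against 4.97, 1.74, 3.17, 1.65, 4.12 and 6.93 in the pool 400 fragments. These values stand for 1 to 10 reads a library and 42 in all. The pools overlapped, and a difference was not detectable at this depth.

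StAR-related lipid transfer protein 7, known in mammals to bring phosphatidylcholine to mitochondria, had a pair of tested contigs. Contig3557 was at 66.6, 77.2, 92.6, 83.2, 84.3 and 124 in the pool 300 fragments of corals 2, 7, 75, 40, 68 and 70, against 43.1, 71.5, 85.6, 74.4, 90.7 and 202 in the pool 400 fragments. Coral 70 was highest and coral 2 lowest in each pool. Contig3557 was higher in pool 300 in all 3 corals from pool 300, by 0.62, 0.11 and 0.11, which held for 25.1% of all contigs in one direction or the other. In coral 7 the deposited size factor of the pool 400 library was 1.18 times the median-ratio factor. Of the 2 tested StAR-related contigs, 2 had a positive mean difference in corals from pool 300, and 1 did after rescaling. Contig133082 was at 34.8, 13.7, 22.1, 15.2, 28.9 and 26.6 in the pool 300 fragments, against 31.5, 14.0, 20.1, 19.0, 13.7 and 27.7 in the pool 400 fragments, corals in the same order. Coral 2 was again at one end, here the highest. StAR-related protein 3, which in mammals binds cholesterol on late endosomes, was read from contig107494 at 1.45 to 4.98 in pool 300 and 1.74 to 11.6 in pool 400, too low for a test.

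Non-specific lipid-transfer protein was read from contig107751 and contig49970. Contig107751 was at 18.8, 15.6, 37.2, 22.3, 12.0 and 17.1 in the pool 300 fragments of corals 2, 7, 75, 40, 68 and 70, against 6.62, 17.4, 35.9, 9.92, 30.2 and 27.7 in the pool 400 fragments. Coral 75 was highest in both pools, and pool 300 was the higher one in corals 2, 75 and 40 only. Contig49970 was at 7.24, 18.1, 14.1, 17.6, 14.5 and 17.1 in the pool 300 fragments, against 8.28, 7.85, 21.1, 16.5, 16.5 and 32.6 in the pool 400 fragments. The pool differences were 0.07 (95% interval -0.74 to 0.89) and -0.10 (95% interval -0.80 to 0.60), intervals that are wide on both sides of 0.

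**Figure D2:**
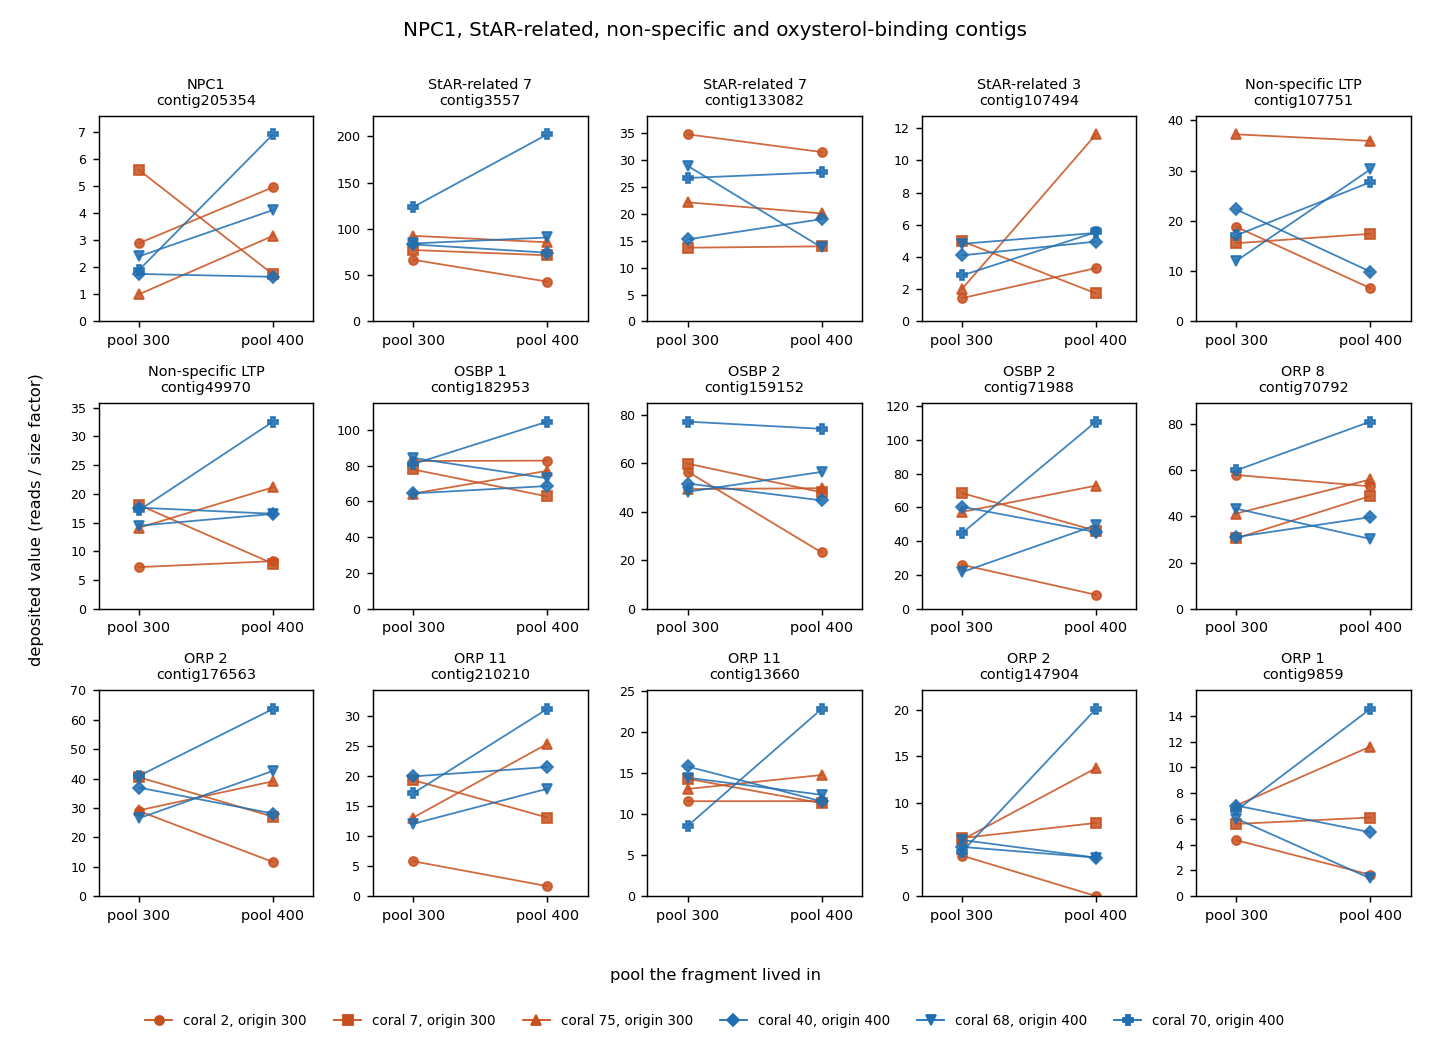
Deposited value (reads divided by size factor, vertical axis from 0) of the NPC1, StAR-related, non-specific lipid-transfer (LTP) and oxysterol-binding (OSBP, ORP) contigs in the pool 300 fragment (left) and pool 400 fragment (right) of 6 corals. Lines join the fragments of a coral, red for origin 300 and blue for origin 400. The pool 400 fragment of coral 70 holds the highest value in 8 of the 9 oxysterol-binding panels.

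Oxysterol-binding protein 1, which in mammals exchanges cholesterol for a phosphoinositide between endoplasmic reticulum and Golgi, was the steadiest of the sterol transfer contigs. Contig182953 was at 82.5, 77.8, 64.4, 64.5, 84.3 and 80.9 in the pool 300 fragments of corals 2, 7, 75, 40, 68 and 70, against 82.8, 62.8, 77.1, 68.6, 72.9 and 105 in the pool 400 fragments. Its standard deviation of log2 values was 0.208, at percentile 2.13 of all contigs, and its pool difference was -0.03 (95% interval -0.36 to 0.30). The groups overlapped, with only the pool 400 fragment of coral 70 outside the range of pool 300 at the upper end.

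Oxysterol-binding protein 2 was read from contig159152 and contig71988. Contig159152 was at 56.5, 59.8, 49.3, 51.6, 48.2 and 77.1 in the pool 300 fragments of corals 2, 7, 75, 40, 68 and 70, against 23.2, 48.0, 49.6, 44.6, 56.4 and 74.1 in the pool 400 fragments. The pool 400 fragment of coral 2 was the low one. Contig71988 was at 26.1, 68.5, 57.3, 60.4, 21.7 and 44.7 in the pool 300 fragments, against 8.28, 46.2, 72.9, 45.4, 49.5 and 111 in the pool 400 fragments. Coral 2 was lowest in pool 400 and coral 70 highest there. Single corals differed by 1.54, 0.56 and -0.34 (corals 2, 7 and 75) and by 0.40, -1.16 and -1.29 (corals 40, 68 and 70). Its pool difference was 0.59 (SE 0.43) in corals from pool 300 and -0.68 (SE 0.43) in corals from pool 400, with a limma p of 0.141 for the second before adjustment. The second was -1.22 without coral 40, -0.44 without coral 68, -0.38 without coral 70 and -1.29 without corals 40 and 68. The difference between origins was 1.27 (SE 0.60), with a limma p of 0.0613 before and 1 after adjustment.

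Oxysterol-binding protein-related proteins (ORPs) made up the rest. ORP 8 (contig70792), a phosphatidylserine carrier of the endoplasmic reticulum in mammals, was at 30.5 to 59.9 in pool 300 and 30.2 to 81.0 in pool 400. ORP 2 (contig176563) was at 26.5 to 40.9 in pool 300 and 11.6 to 63.7 in pool 400. Contigs of ORP 11 were at 5.79 to 19.9 (contig210210) and 8.56 to 15.8 (contig13660) in pool 300, against 1.66 to 31.2 and 11.3 to 22.9 in pool 400. In each the range in pool 400 reached higher than that in pool 300, with the fragment of coral 70 as its maximum. The deposited size factor of that library was 0.638 times the median-ratio factor, and these ranges were not compared after rescaling.

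A second ORP 2 contig (contig147904) and ORP 1 (contig9859), known in mammals from late endosomes, were too low for a test. They were at 4.34 to 6.23 and 4.34 to 7.04 in pool 300, against 0 to 20.1 and 1.37 to 14.5 in pool 400. The 0 was the pool 400 fragment of coral 2, where 3 reads would be a value of 4.97.

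Coral 70 in pool 400 was the highest library in 8 of 9 oxysterol-binding contigs, where 47.6% of all contigs had their highest value there, and in 0 of 8 NPC2 contigs. After rescaling the libraries by median-ratio factors it was the highest in 2 of 9, where 10.9% of all contigs were. The pool 400 fragment of coral 2 was the lowest in 5 of 9 on the deposited scale and in 5 of 9 after rescaling, where 32.8% and 23.5% of all contigs were. The share of oxysterol-binding contigs with their maximum in coral 70 thus depended on the scaling, and that of minima in coral 2 did not. The pool 400 library of coral 2 had the fewest reads, 557339. After rescaling it was also the highest in 2 of 9, where 30.45% of all contigs were.

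Likeness among the contigs themselves was taken as Pearson r of log2 values over the 12 libraries. Among 21 pairs of tested oxysterol-binding contigs r had a median of 0.415 and was above 0.5 in 7, the highest being 0.924 between contig71988 and contig210210. Among 28 NPC2 pairs the median was 0.013, with r above 0.5 in 4. After rescaling, a check added once the data had been seen, the median was -0.269 among oxysterol-binding pairs and -0.016 among NPC2 pairs. Rescaled oxysterol-binding pairs ran from -0.868 to 0.901, with 6 of 21 above 0.5. The median of oxysterol-binding pairs thus depended on the scaling, while the count above 0.5 hardly moved. Between the groups the 56 values of r ran from -0.815 (contig600122 with contig210210) to 0.595. These are descriptions over libraries that share corals, pools and scaling.

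The pool comparison asked which transcripts depended on the habitat in which a fragment lived. Over 6 corals limma called 0 of 19 sterol transfer contigs, where 0.344% of all 11903 contigs were called, and edgeR on the recovered reads also called 0. By limma, 2 of 19 had an unadjusted p under 0.05, contig195376 (0.95, SE 0.33, adjusted p = 0.671) and contig133216, of opposite sign, where 4.87% of all contigs had one. Without corals 40 and 68 the first of these was 1.57 (limma adjusted p = 0.116). When the pool 400 fragments of corals 40 and 68 were exchanged, limma gave unadjusted p of 0.0703 for contig195376 and 0.00867 for contig133216. Of the 19, 12 had positive and 7 negative differences, where 55.6% of all contigs had positive ones. Their median was 0.03, as was that of all contigs. By group the positive ones were 7 of 8 NPC2, 2 of 2 StAR-related, 1 of 2 non-specific and 2 of 7 oxysterol-binding contigs, counts that rescaling left as they were. In 0 of 19 did all 6 corals differ the same way, which 3.58% of all contigs did.

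**Figure D3:**
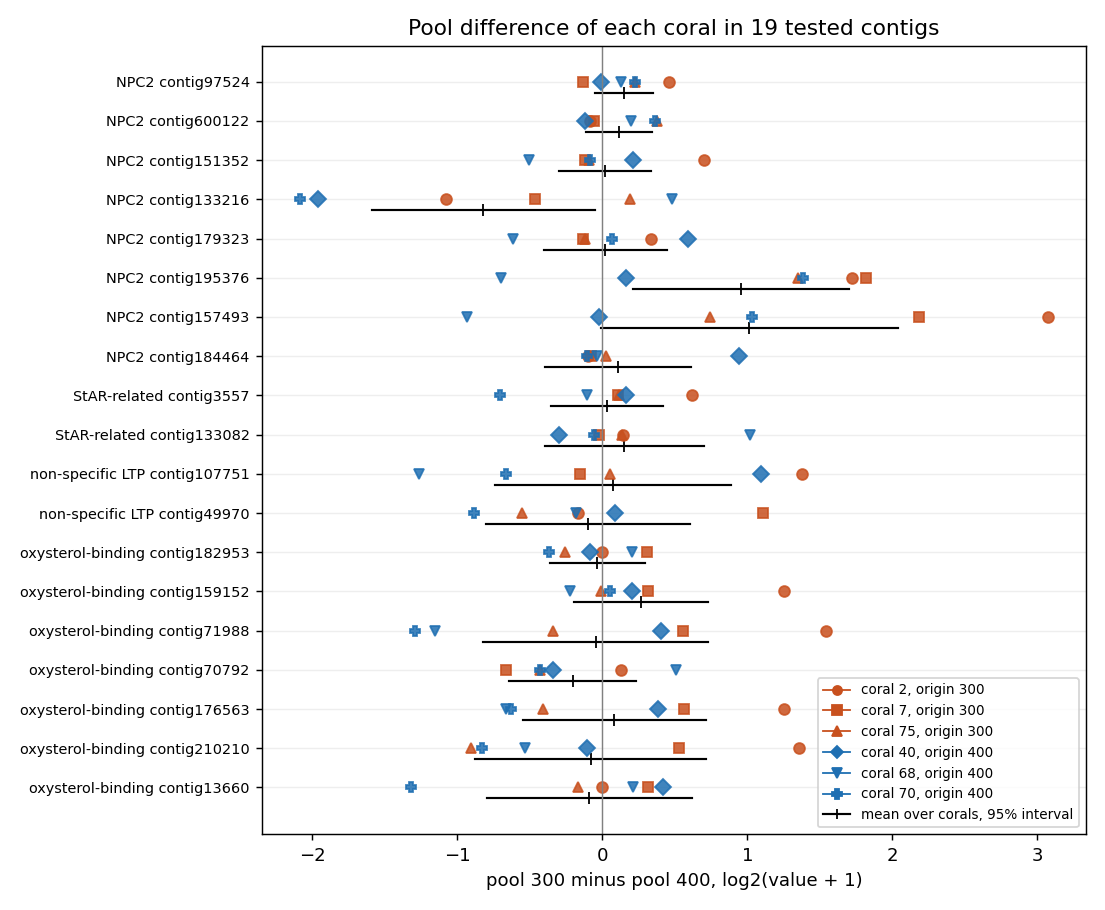
Difference between the fragments of each coral (pool 300 minus pool 400, log2(value + 1), horizontal axis) for the 19 tested contigs, red for origin 300 and blue for origin 400. The black bar below each row gives the mean over 6 corals with its 95% interval from limma. The intervals of contig195376 and contig133216 leave out 0, on opposite sides, and the widest spread is that of contig157493, between -0.93 in coral 68 and 3.07 in coral 2.

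In corals from pool 300, comparing the home pool with the foreign one, limma called 0 of 19 contigs, where 0.554% of all contigs were called, and edgeR called 0. The 2 contigs with a limma p under 0.05 before adjustment were contig195376 and contig157493, where 4.71% of all contigs had one. Positive differences stood in 16 of 19 and in 66.4% of all contigs, their median being 0.16 and that of all contigs 0.13. After rescaling 10 of 19 and 47.8% of all contigs were positive, the medians being 0.01 and -0.02. On deposited values all 3 corals differed the same way in 3 of 19 contigs, contig195376, contig157493 and contig3557, and in 25.1% of all contigs.

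For corals from pool 400, with pool 300 as the foreign pool, limma called 0 of 19 and 0% of all contigs, and edgeR called 0 of 19. At an unadjusted limma p under 0.05 there was contig133216, where 2.05% of all contigs had one. Positive differences stood in 8 of 19 and in 38.8% of all contigs, with a median of -0.09 for each. After rescaling 10 of 19 and 54.2% of all contigs were positive, with a median of 0.03 for each, so the direction turned with the scaling. All 3 corals differed the same way in 1 of 19, ORP 11 (contig210210, with -0.10, -0.53 and -0.83 in corals 40, 68 and 70), where 16.2% of all contigs did. For the difference between origins, limma called 0 of 19 and 0% of all contigs, and edgeR called 0 of 19. Unadjusted p was under 0.05 in 2 of 19 and in 1.77% of all contigs. The median of that difference was 0.46 where all contigs had 0.20, and 0.20 after rescaling where all contigs had -0.06.

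The origin comparison asked what differed between colonies from each pool, wherever they lived. Limma called 0 of 19 contigs on the means of 3 corals against 3, where 0.0336% of all contigs were called, edgeR called 0, and 0 of 19 had an unadjusted p under 0.05, where 2.64% of all contigs had one. The smallest p belonged to the NPC2 contig179323, with a mean of 42.4 ± 14.6 for origin 300 and 63.5 ± 9.51 for origin 400 (SD over 3 corals each), or -0.60 on the log2 scale (SE 0.32), and a limma p of 0.0858 before and 0.998 after adjustment. Next was StAR-related protein 7 (contig3557), at -0.53 (SE 0.33) and a limma p of 0.134 before and 0.998 after adjustment, with coral 70 the highest. Without coral 70 it was -0.23, without coral 2 it was -0.34, and without corals 40 and 68 it was -1.15. NPC2 contigs were positive in 6 of 8 and oxysterol-binding contigs in 1 of 7, where 38% of all contigs were. Their medians were 0.28 and -0.32 where all contigs had -0.10. After rescaling these counts were 7 of 8 and 3 of 7, where 53.2% of all contigs were positive. The medians were then 0.41 and -0.18 where all contigs had 0.03. No contig had values of the origins or of the pools that kept apart in all libraries, which 0.445% and 0.504% of all contigs did.

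Spread was next split by source. The median share of the sum of squares over the 19 contigs was 60.0% for coral within origin, 4.28% for origin, 2.16% for pool, 5.13% for the difference of pool effects between origins and 20.4% for the residual. Over all contigs the medians were 51.1%, 6.01%, 2.37%, 2.83% and 24.8%. The shares are sums of squares and not mean squares, and coral and residual have the more degrees of freedom. Pool took its largest share among the sterol transfer contigs in contig195376, at 19.7%, and origin in contig179323, at 41.0%. ORP 11 contig13660 had 84.5% in the residual.

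**Figure D4:**
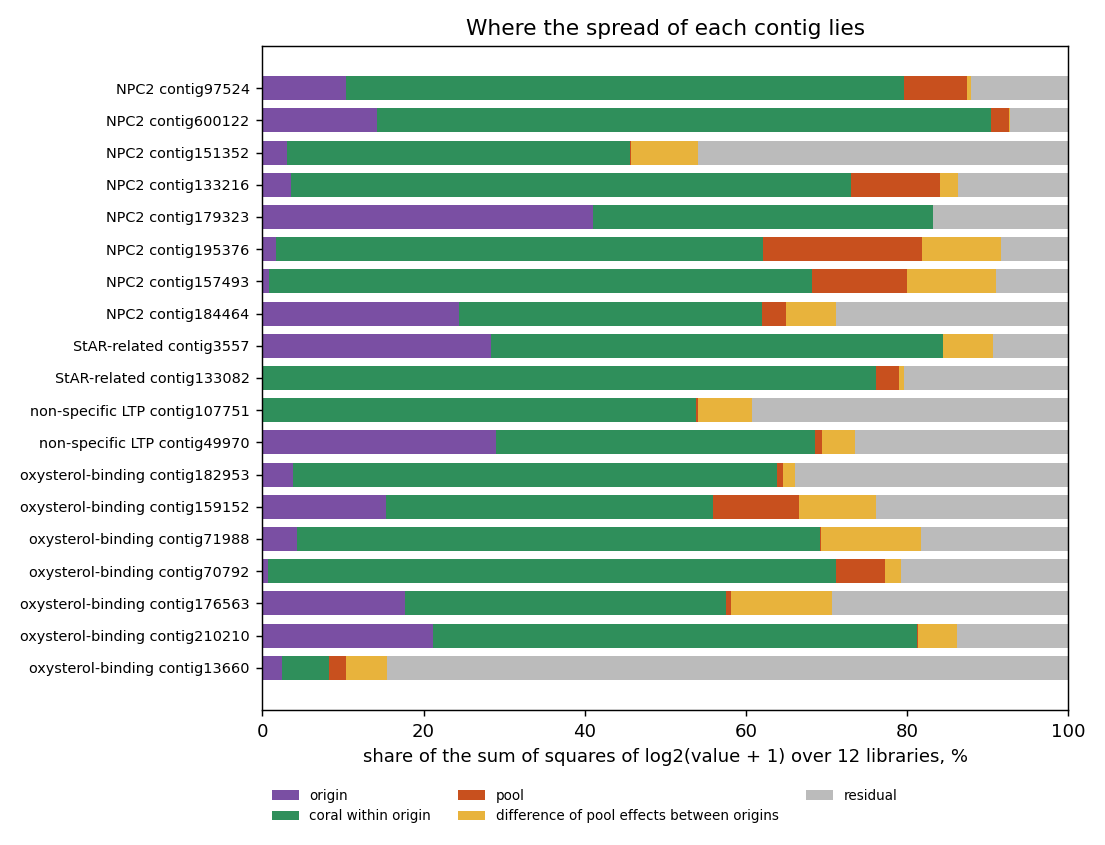
Share of the sum of squares of log2(value + 1) over 12 libraries (horizontal axis, %) for each of the 19 tested contigs, split into origin, coral within origin, pool, the difference of pool effects between origins, and residual. Coral within origin is the widest block in most rows, pool reaches 19.7% in contig195376, and contig13660 is mostly residual.

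Other genes of the sterol pathway were looked at beside them, from lists of description words. Limma called 0 contigs in any of the lists in any of the comparisons. Sterol synthesis matched 5 contigs, and 3 were tested. For the pool over 6 corals 0 of 3 were positive (median -0.22), beside 55.6% of all contigs (median 0.03). One of the 3, 3-hydroxy-3-methylglutaryl-coenzyme A reductase (contig146766), the rate-setting enzyme of the mevalonate pathway, had a pool difference of -0.17 (SE 0.15, limma adjusted p = 1). Delta(14)-sterol reductase (contig140056) had an origin difference of 0.44 (SE 0.42, limma adjusted p = 0.998).

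Sterol sensing matched 13 contigs of SREBP 1, its escort SCAP, Insulin-induced gene 2 and patched domain proteins, which share or attend a sterol-sensing domain. Of the 10 tested, 9 were positive in corals from pool 300 (median 0.34), where 66.4% of all contigs were. In corals from pool 400, 1 was positive (median -0.28), where 38.8% of all contigs were. The difference between origins had a median of 0.88 where all contigs had 0.20, with 0 of 10 at an unadjusted limma p under 0.05. After rescaling 8 were positive for origin 300 and 3 for origin 400, beside 47.8% and 54.2% of all contigs. The median difference was then 0.62 where all contigs had -0.06. Patched domain-containing protein 3 (contig18493) had the smallest p for the pool, at 0.33 (SE 0.26, limma adjusted p = 1), and Patched domain-containing protein 2 (contig203979) for origin, at -1.07 (SE 0.65, limma adjusted p = 0.998).

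Lipid efflux and esterification had 14 tested contigs, with 9 positive for the pool over 6 corals and a median of 0.10. Its smallest pool p was that of Caveolin-1 (contig26195), a coat protein of sterol-rich membrane pits, at 0.41 (SE 0.23, limma adjusted p = 1), and its smallest origin p that of ATP-binding cassette sub-family A member 2 (contig184928), at -0.74 (SE 0.47, limma adjusted p = 0.998). Lipoprotein uptake had 14 tested contigs, with 10 positive for the pool (median 0.13). Apolipophorins (contig170586), carriers of lipid in body fluid, had 0.58 (SE 0.43, limma adjusted p = 1), and Low-density lipoprotein receptor-related protein 4 (contig181962) had an origin difference of -0.82 (SE 0.60, limma adjusted p = 0.998).

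Late endosome and lysosome, the compartment of NPC2, had 37 tested contigs. Of these, 28 were positive for the pool over 6 corals, where 55.6% of all contigs were. Their median was 0.09 where all contigs had 0.03. For this list the count was not taken again after rescaling. Ras-related protein Rab-11A (contig152125), of the recycling endosome, went the other way, at -0.73 (SE 0.25), with a limma p of 0.0156 before and 0.656 after adjustment. V-type proton ATPase subunit d 1 (contig208000), of the pump that acidifies the lysosome, had an origin difference of -0.66 (SE 0.37, limma adjusted p = 0.998). Other lipid transfer and contact site proteins had 9 tested contigs, with 5 positive for the pool and a median of 0.02. Phosphatidylinositol transfer protein beta isoform (contig68128) had a pool difference of -0.30 (SE 0.15, limma adjusted p = 1), and Collagen type IV alpha-3-binding protein (contig164973), the ceramide carrier, an origin difference of 0.36 (SE 0.35, limma adjusted p = 0.998).

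Patterns most like that of contig97524, the NPC2 contig of highest mean, were found by Pearson r of log2 values over the 12 libraries among contigs with an informative description. They were Core histone macro-H2A.2 (contig211783, r = 0.964), 14-3-3 protein epsilon (contig148570, 0.957), Testican-3 (contig167988, 0.956), Cytochrome c oxidase subunit 7A-related protein (contig155998, 0.941) and Thioredoxin reductase 1 (contig152187, 0.936). The libraries share corals, pools and scaling.

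Markers of other cell types are given for all of their lists. Over 6 corals limma called 0 of 2 tested algal, 1 cnidocyte, 21 muscle, 23 digestive, 10 germ line, 40 sperm and cilia, and 2 calicoblast contigs. Smallest pool p in these lists belonged to Tropomyosin-2 (contig112464), a muscle protein, at 0.80 (SE 0.18, limma adjusted p = 0.143). The summed levels in pool 300 and in pool 400 were 43.4 to 86.7 and 53.0 to 121.5 for algae, 21.7 to 44.0 and 22.0 to 69.3 for cnidocytes, 2471.0 to 3056.8 and 1740.1 to 3471.1 for muscle, and 1074.1 to 1724.2 and 1124.6 to 2009.1 for digestive enzymes. They were 480.5 to 687.6 and 409.0 to 1117.1 for the germ line, and 2078.4 to 2330.1 and 1874.8 to 3669.2 for sperm and cilia. The highest pool 400 sums of cnidocytes, muscle, digestive enzymes, germ line and cilia were those of coral 70, the library with the lowest size factor ratio. Among the origin differences of these lists, that of CP47 (contig194637) was 3.38 (SE 0.88, limma adjusted p = 0.998). Galaxin (contig184232), of the skeleton's organic matrix and 1 of 2 calicoblast contigs, had an origin difference of 3.00 (SE 0.43, limma adjusted p = 0.0555). In pool 300 the calicoblast list summed to 184.3 to 486.6 for origin 300 and 10.8 to 178.8 for origin 400, and in pool 400 to 213.6 to 516.6 for origin 300 and 29.8 to 328.6 for origin 400.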

How the data were processed

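Polyp RNA of 12 fragments was sequenced from TruSeq libraries, 12 to a lane, per the labels' protocols. The authors deposited one table of 16980 contigs, whose unit is a signal: read counts scaled by the size factor of their library. The submitters' processing notes name BWA and DESeq, whose roles and versions are not given in the sources used here. Per the file headers the pool 400 columns are adjusted, with no word on how. Reads were recovered from the steps between low values. Within 0.01 of a whole number lay every value of 11 libraries and all but 1 of coral 2 in pool 400, and that one was taken as 0. Recovered totals ran from 557339 to 1643526 reads, which limits low contigs, and floors cover counting error only.

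Contigs with a mean of at least 10 were tested by limma 3.58.1 (R 4.3.3, trended variance) on log2(value + 1). Benjamini-Hochberg adjustment ran over all 11903 contigs at 0.05, and fold changes understate those of low contigs. Pool effects (pool 300 minus pool 400) were blocked by coral, each coral having given both fragments per the series design. Origin (origin 300 minus origin 400) was tested on coral means. Corals are separate colonies. The fits were first tested on simulated data with known changes. Alternatives were edgeR 4.0.16 (quasi-likelihood) on recovered reads, pseudocounts of 0.5 and 5, no minimum mean or one of 30, rescaling by median-ratio factors, no block, an exchanged block, and omitted corals. Pearson r after rescaling was added after seeing the data.

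Members, lists and tests were chosen with earlier results of these data known. Values in every library are given for the 2 contigs of highest mean in each role and the 2 of smallest p in each comparison. For each list the contig of smallest p for pool and for origin is named. The word patterns also matched inter-alpha-trypsin inhibitor and calponin homology domain proteins, which mark no cell type.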

Additional observations from a re-analysis of the deposited data

Results flagged for a closer look

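For each of the 19 tested contigs the differences of the 6 corals (pool 300 minus pool 400, log2(value + 1)) were searched for a coral far from the rest, and 4 contigs had one. Chance gives about 1 in 20 for 6 normally spread values. The share over all contigs was not counted, so 4 of 19 cannot be read as an excess. In NPC2 contig184464, coral 40 had 0.95 where the other corals lay between -0.10 and 0.02. In StAR-related protein 7 contig133082, coral 68 had 1.02 where the others lay between -0.30 and 0.14. In Oxysterol-binding protein 2 contig159152, coral 2 had 1.25 where the others lay between -0.22 and 0.31. In ORP 11 contig13660, coral 70 had -1.32 where the others lay between -0.17 and 0.42. The gap to the nearest coral was 0.879, 0.667, 0.637 and 0.663 of the whole range in these contigs. Corals 40 and 68, whose labelled pairing is in doubt, hold 2 of the 4 values, and a link to the pairing was not tested.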

How the results depend on the processing

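The count of sterol transfer contigs called was 0 in all settings for origin, for the pool over 6 corals, for the pool in corals from pool 400 and for the difference of pool effects. In corals from pool 300 it was 0 in 13 of 14 settings and 1 (contig195376) when corals 40 and 68 were omitted. Omitting both also moved the median of the 19 contigs in corals from pool 400 to -0.37, a value from coral 70 alone, against -0.09 with 3 corals. The contig195376 difference in corals from pool 300 had limma adjusted p = 1 with no replicate block, 0.391 after rescaling and 0.0811 without coral 68, and 0.329 by edgeR, at differences of 1.63, 1.48, 1.63 and 1.55. The cause of these moves was not tested. Of the 10 differences refitted for single contigs 0 reversed. Medians of the 19 contigs did turn: for origin -0.08 became 0.06 after rescaling, 0.04 by edgeR, 0.03 without coral 70 and 0.04 within pool 300, in corals from pool 400 -0.09 became 0.03 after rescaling, and over 6 corals 0.03 became -0.09 without coral 2 and -0.02 without coral 40. Fits that left out one coral gave 0 calls in every comparison. Counts over all contigs depended on the setting: 0 to 74 for the pool over 6 corals (41 as reported, 8 after rescaling and by edgeR, 63 with the exchanged block, 0 without corals 40 and 68, 4 to 74 without single corals), 9 to 98 in corals from pool 300 (66 as reported, 42 with no replicate block, 43 by edgeR), 0 to 2 for the difference between origins and 0 to 12 for origin (4 as reported). Shallow libraries limit the sterol transfer contigs under a mean of 10, of which there were 4.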
